A study of Mus musculus with 12 samples.

Results

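The RNF genes are the mouse genes whose symbol is Rnf followed by a number, and they encode RING finger proteins. They were taken from the deposited table by symbol and by the annotation as protein-coding, with no use of expression values. This gave 76 genes of the 41708 in the table, and 1 further symbol of that form is not analysed here. RNA was sequenced from the livers of 12 mice on a C57BL6/J background after an overnight fast of 16 h. All 12 mice carried Ube4a flox/flox alleles. In 5 mice (flox) these were the only alteration named, and in 7 mice (LKO) Albumin-Cre, a Jackson Laboratory (Jax) line, was present as well. The Albumin promoter drives Cre in hepatocytes, and Ube4a in other cells of the liver was not measured apart.

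A RING finger is a small zinc-binding fold that holds a ubiquitin-loaded E2 enzyme and brings it to a substrate, so that ubiquitin is passed on to that substrate. The RNF symbol marks the fold and not common descent, and its holders work at the endoplasmic reticulum, endosomes and lysosomes, on ribosomes, on chromatin and in innate immune signalling. Ube4a encodes a U-box protein that lengthens ubiquitin chains, and the U-box resembles the RING fold without its zinc. The comparison of LKO with flox livers shows whether mRNA of the RING ligases differed when Ube4a was removed from hepatocytes. Albumin-Cre is named for the LKO mice only, so its presence and the loss of Ube4a cannot be told apart.

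Ube4a itself was 120 to 152 CPM, counts scaled to library size, in the flox livers and 23.2 to 34.0 CPM in the LKO livers, so all 12 libraries had the level of their label. Its log2 fold change was -2.33 (SE 0.09), and edgeR's quasi-likelihood test, adjusted by Benjamini-Hochberg over all genes tested, gave an adjusted p of 3.44e-09. The two-sided exact permutation p was 0.00126, the smallest that the 792 splits of 5 and 7 livers can give. Libraries held 13399874 to 16525053 counts. The labels name separate mice and no litter or batch.

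Flox livers 4 and 5 stood apart from the other 10. The summed level of 8 neutrophil markers was 250 and 399 CPM in them and 0 to 1.77 CPM in the others. The macrophage sum over 8 markers was 486 and 699 CPM against 31.5 to 227 CPM, and the endothelial sum over 6 markers was 222 and 295 CPM against 52.1 to 178 CPM. The stellate cell sum over 6 markers was 231 and 339 CPM against 83.4 to 212 CPM. All neutrophil, macrophage and endothelial markers were higher in both livers than in each of the other 10, as were 3 of 6 stellate cell markers and 2 of 7 lymphocyte markers. The hepatocyte sum over 7 markers was 98200 and 92590 CPM in them and 96070 to 126600 CPM in the others, and no marker was at 0 in all 12 livers. In whole liver, fewer cells of a type and less RNA per cell cannot be told apart. Values without these livers are given beside the members that moved most, some of the lists, and the genes named for a small p.

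No RNF gene passed the threshold between LKO and flox livers. Of the 76, 58 had enough counts to be tested, and 0 of the 58 passed at a Benjamini-Hochberg adjusted p of 0.05 by edgeR, where 0.00793% of all 12615 genes tested did, which is Ube4a alone. The smallest adjusted p was 0.541, for Rnf152. At an unadjusted p under 0.05 there were 3 RNF genes or 5.17%, beside 7.64% of all genes. Rnf152 was the 1 on the higher side in LKO livers, where 3.49% of all genes lay, and Rnf44 and Rnf166 were the 2 on the lower side, where 4.15% lay. DESeq2 called 0 of the 56 that it gave an adjusted p, with 3 at an unadjusted p under 0.05 and a smallest adjusted p of 0.231, beside 0.189% of all genes.

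The fold changes were small and closely bounded for most members. The median log2 fold change (LKO over flox) was -0.014 for the RNF genes and -0.006 for all genes tested, and the values ran from -0.82 for Rnf150 to 0.39 for Rnf152. Of the 58 genes, 25 lay above 0 and 33 below, which puts 43.1% above 0 beside 48.3% of all genes. The 95% confidence interval lay wholly inside a 1.5-fold difference in either direction for 52 RNF genes, or 89.7%, beside 65.3% of all genes tested. It lay inside 1.25-fold for 38. The 6 whose intervals reached beyond 1.5-fold were Rnf152, Rnf122, Rnf219, Rnf144a, Rnf157 and Rnf150. In 0 of the 58 did the flox and LKO livers fail to overlap in CPM, beside 0.484% of all genes.

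**Figure D1:**
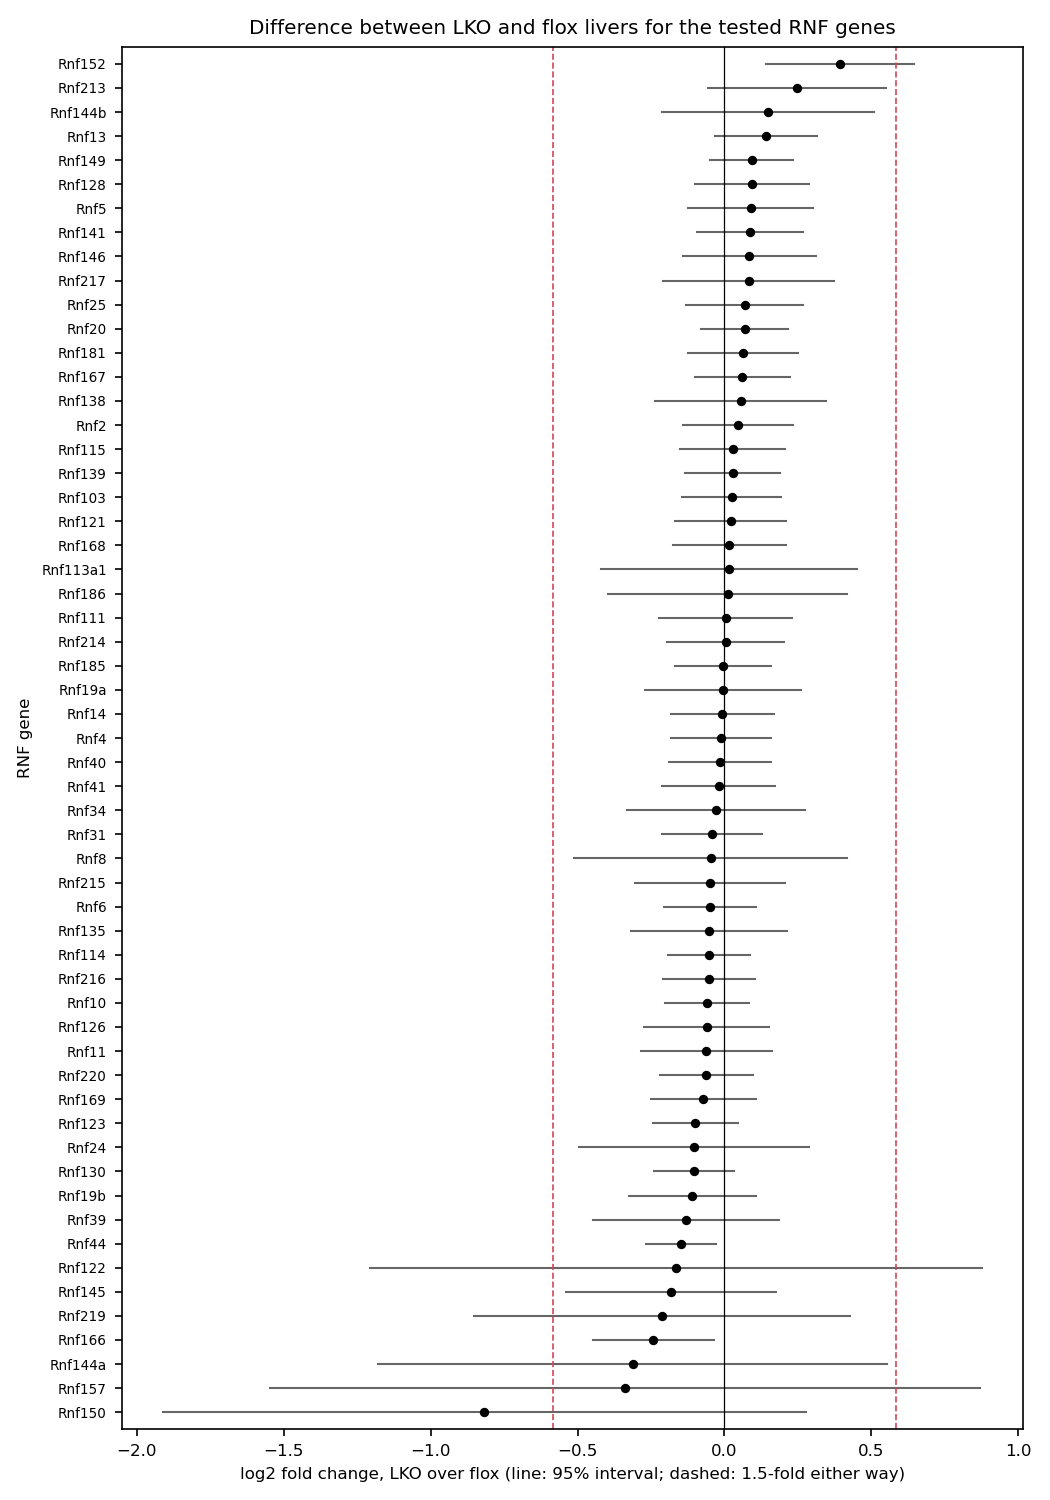
Log2 fold change of LKO over flox (x axis) for 57 tested RNF genes (y axis, ordered by the value), with the 95% confidence interval as a line and a 1.5-fold difference in either direction as dashed lines. The intervals of 51 genes stay between the dashed lines, and the widest belong to Rnf150, Rnf157 and Rnf122.

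The 58 tested members were also steadier from liver to liver than all genes tested, and more abundant. The SD of log2 CPM over the 12 livers had a median of 0.154 for the tested RNF genes and 0.235 for all genes tested. These SDs were not compared at equal level. The median level of the tested RNF genes was 5.47 FPKM, the deposited per-length scale, beside 4.03 FPKM for all genes tested. The highest liver was less than 1.5 times the lowest in 33 of the 58, from 1.5 to 3 times in 20, and beyond that in 5. Summed over all members, mRNA came to 2556.5 ± 54.0 CPM per flox liver (SD, n = 5) and to 2566.2 ± 50.2 CPM per LKO liver (SD, n = 7).

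The protease-associated transmembrane ligases gave both the highest and some of the lowest levels of all RNF genes. These proteins hold a protease-associated domain in the lumen of endosomes, lysosomes or the secretory pathway and a RING on the cytosolic side. Of 8 such genes 6 were tested and 0 were called, 4 above and 2 below 0, with a median log2 fold change of 0.08. Rnf130, the mouse counterpart of Drosophila goliath, and Rnf149 were the most abundant RNF mRNAs of the fasted liver, and Rnf133 and Rnf148, known from testis, were barely read.

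The bases before the transcription start of these 4 genes are shown because the genes span the range of levels within 1 protein family and differ in CG dinucleotides. They were chosen after the levels were seen. Each line gives 250 bases upstream of the start, in the direction of transcription, from RefSeq on GRCm38.p6, with CG in capitals. Rnf130 is at chr11:50025081-50025330 on the plus strand, Rnf149 at chr1:39577348-39577597, Rnf133 at chr6:23650306-23650555 and Rnf148 at chr6:23655137-23655386, all 3 on the minus strand.
Rnf130: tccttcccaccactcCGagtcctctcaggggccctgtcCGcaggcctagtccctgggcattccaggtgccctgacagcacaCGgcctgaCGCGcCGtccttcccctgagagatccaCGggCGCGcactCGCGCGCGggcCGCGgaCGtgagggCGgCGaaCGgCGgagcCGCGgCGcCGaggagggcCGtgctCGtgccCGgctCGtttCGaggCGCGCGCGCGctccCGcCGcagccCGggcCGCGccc
Rnf149: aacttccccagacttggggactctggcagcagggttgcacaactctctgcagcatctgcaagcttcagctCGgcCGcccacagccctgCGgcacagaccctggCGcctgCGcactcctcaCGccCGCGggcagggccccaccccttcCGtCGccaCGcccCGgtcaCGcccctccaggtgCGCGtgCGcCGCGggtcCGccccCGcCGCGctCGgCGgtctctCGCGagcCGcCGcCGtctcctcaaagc
Rnf133: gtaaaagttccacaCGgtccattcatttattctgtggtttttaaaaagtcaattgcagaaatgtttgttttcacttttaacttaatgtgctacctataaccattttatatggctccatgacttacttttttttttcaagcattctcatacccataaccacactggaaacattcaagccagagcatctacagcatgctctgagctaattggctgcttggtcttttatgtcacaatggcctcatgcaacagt
Rnf148: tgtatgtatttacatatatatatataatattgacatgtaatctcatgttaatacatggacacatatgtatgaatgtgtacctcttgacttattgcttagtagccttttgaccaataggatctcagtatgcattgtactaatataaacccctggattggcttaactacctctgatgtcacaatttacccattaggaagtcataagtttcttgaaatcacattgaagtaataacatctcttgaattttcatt

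These windows hold 39 CG for Rnf130, 29 for Rnf149, 1 for Rnf133 and 0 for Rnf148. CG reads the same on both strands and does not overlap itself, so each is counted once. A promoter entry was matched by symbol for 61 of the 76 genes, and where a gene had several starts the one with most CG was used. The RNF genes had a median of 16 CG, and 72.1% had at least 10, beside a median of 11 and 53.1% over 17491 protein-coding genes. Tested members (n = 48) had a median of 19 CG (1 to 40) and 83.3% reached 10. Members too low to test (n = 13) had a median of 4 (0 to 29) and 30.8% reached 10. Exceptions lay on both sides. Rnf185, with 3 CG, was at 15.2 FPKM and Rnf20, with 1 CG, at 4.74 FPKM, while Rnf157, with 40 CG, was at 0.127 FPKM and Rnf32, with 29 CG, at 0.0511 FPKM. These counts describe the sequence alone, since no methylation or binding was measured.

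**Figure D2:**
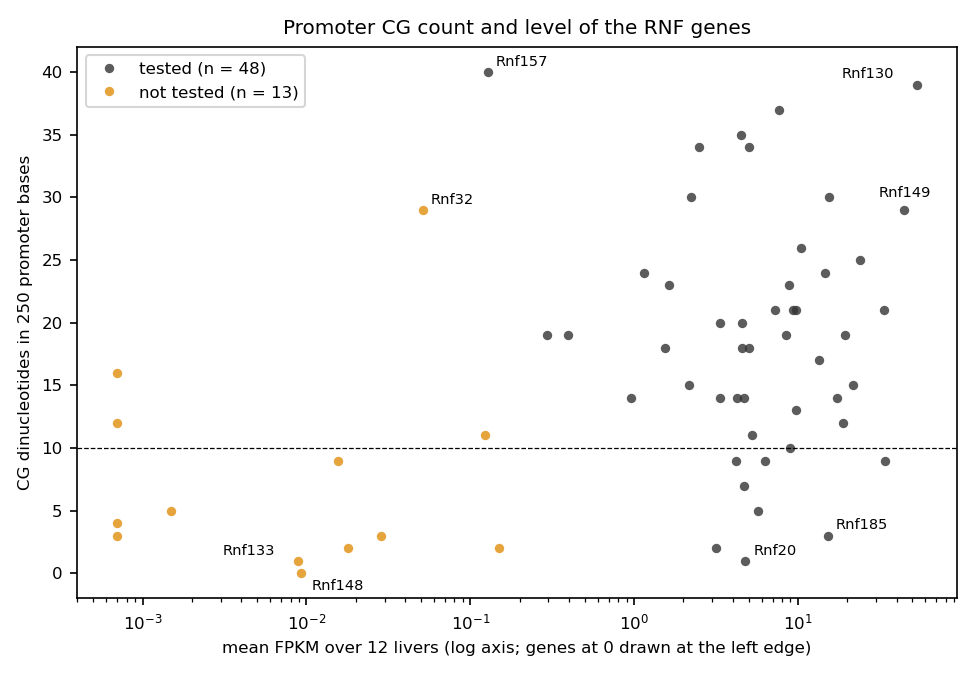
CG dinucleotides in the 250 bases before the start (y axis) against mean FPKM over the 12 livers (x axis, log scale, genes at 0 drawn at the left edge) for the 61 RNF genes with a promoter entry, 48 tested and 13 not tested. The dashed line marks 10 CG, which 40 of the tested and 4 of the untested genes reach.

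Rnf130 (chromosome 11, 50640517 to 50724644 on the plus strand in the coordinates of the deposited table) read 57.8, 56.2, 52.4, 58.4 and 53.5 FPKM in flox livers 1 to 5. The LKO livers had a lowest value of 46.4, a median of 51.1 and a highest of 55.0 FPKM. All 7 LKO livers were under the flox mean, yet the ranges overlapped. The log2 fold change was -0.10 (SE 0.06, 95% confidence interval -0.24 to 0.03), and the Benjamini-Hochberg adjusted p was 0.708 in edgeR. Without flox livers 4 and 5 the log2 fold change was -0.10 (-0.28 to 0.07).

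Rnf149 (chromosome 1, 39894804 to 39921804, minus strand) read 40.8, 47.3, 39.9, 43.8 and 42.4 FPKM in the flox livers, and 40.2 at the lowest, 46.4 at the median and 48.4 FPKM at the highest in LKO livers. The protein is known to ubiquitinate wild-type BRAF in human cells. Its log2 fold change was 0.09 (95% confidence interval -0.05 to 0.23), so neighbouring Rnf130 and Rnf149 in the order of levels lay on opposite sides of 0 and neither passed the test. Rnf149 was at 0.10 (-0.09 to 0.28) without flox livers 4 and 5. Rnf128, or GRAIL, known for T cell anergy, averaged 33.3 FPKM. Rnf13 and Rnf167, a pair of endosomal and lysosomal ligases, averaged 17.2 and 9.79 FPKM. Log2 fold changes were 0.09 for Rnf128 (95% confidence interval -0.10 to 0.29), 0.14 for Rnf13 (-0.03 to 0.32) and 0.06 for Rnf167 (-0.10 to 0.22). Without flox livers 4 and 5 they were 0.03, 0.05 and 0.03. The last tested gene of the family, Rnf150, averaged 0.174 FPKM, so Rnf149 was 256 times as abundant per length.

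Rnf133 had 2 counts and Rnf148 had 2 counts in all 12 livers together. The genes lie 3592 bases apart on chromosome 6, on the same strand. Such counts do not support a comparison.

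**Figure D3:**
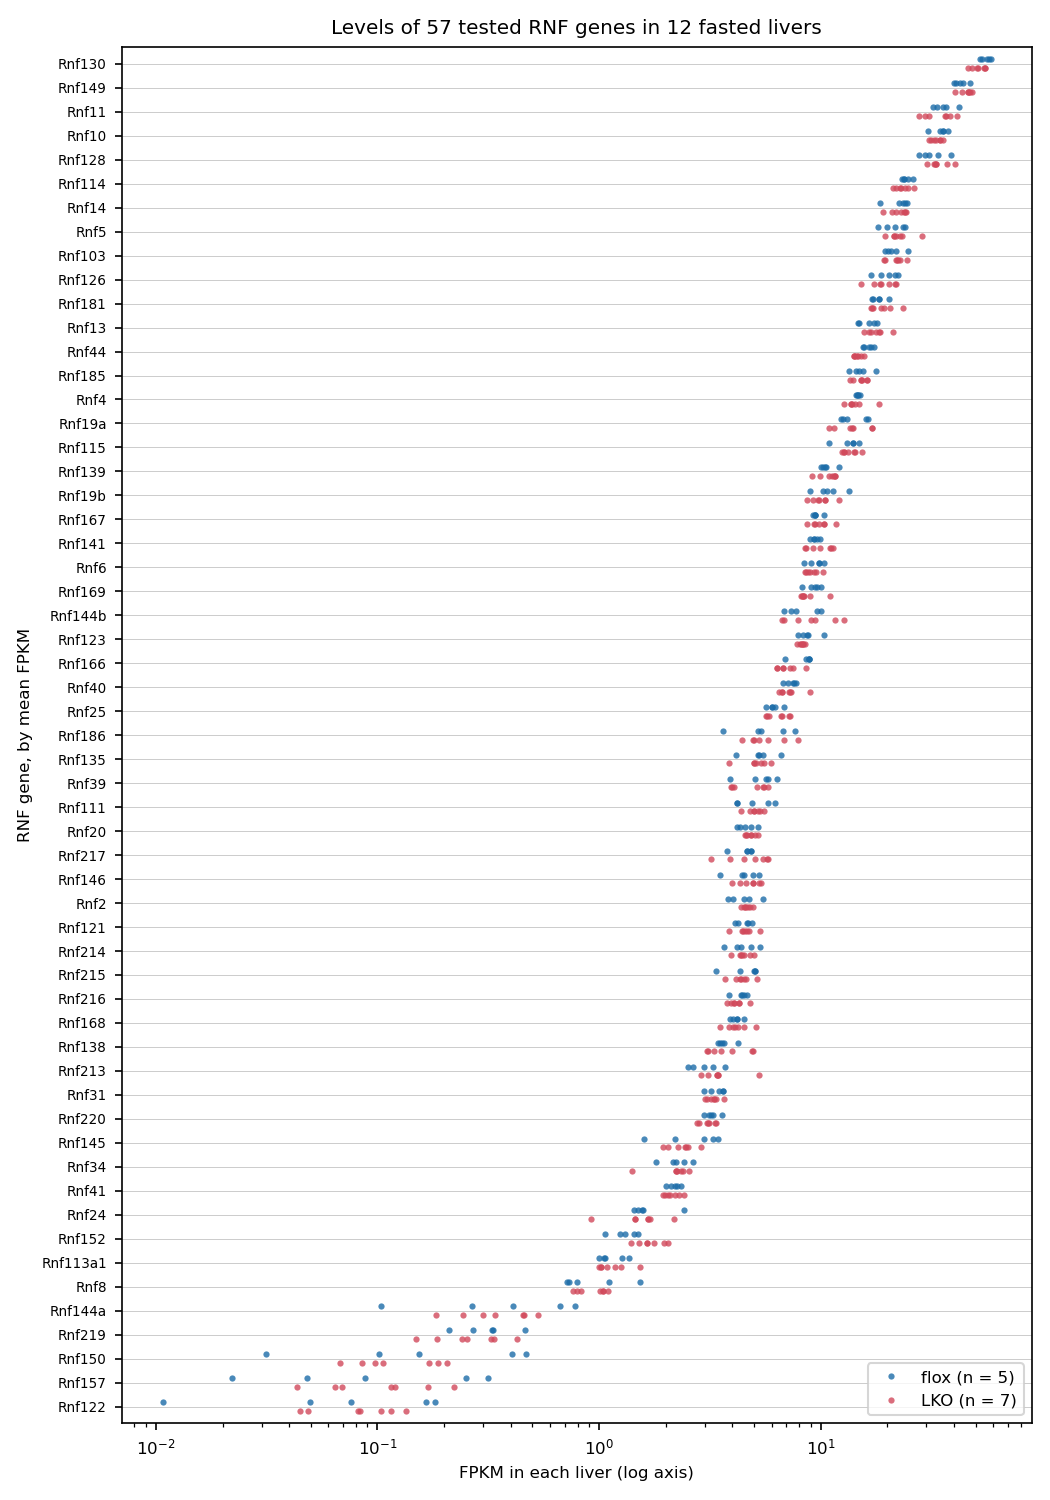
FPKM in each liver (x axis, log scale) for 57 tested RNF genes (y axis, ordered by mean), with 5 flox and 7 LKO livers as separate points. The order runs from Rnf130 at 53.3 to Rnf122 at 0.0913 FPKM, and the livers spread most among the genes at the low end.

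Besides Rnf130, Rnf149 and Rnf128, the 10 highest RNF mRNAs were Rnf11 at 35.1, Rnf10 at 33.9, Rnf114 at 23.8, Rnf14 at 22.5, Rnf5 at 22.2, Rnf103 at 21.6 and Rnf126 at 19.5 FPKM. These 10 genes held 51.0% of the summed FPKM of the family. Rnf11, Rnf10 and Rnf128 lay within 2 FPKM of each other, and neighbours in this order differed by less than their SD over livers, as did Rnf14, Rnf5 and Rnf103. Of all 76 genes, 19 averaged at least 10 FPKM and 52 at least 1 FPKM.

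Of these 10 genes, Rnf10 and Rnf14 are known to act at the ribosome. Rnf10 places ubiquitin on proteins of the small subunit, and Rnf14 with Rnf25 acts on translation factors trapped on stalled ribosomes, as known from human cells. Rnf10 was among the 4 steadiest members, with 282, 272, 270, 260 and 230 CPM in flox livers and 234, 252 and 268 CPM at the lowest, median and highest in LKO livers. Its log2 fold change was -0.06 (95% confidence interval -0.20 to 0.08). Rnf14 gave -0.01 (-0.18 to 0.17) and Rnf25, at 6.31 FPKM, 0.07 (-0.13 to 0.27). In the livers other than flox 4 and 5, Rnf10 was at -0.12 (-0.29 to 0.04), Rnf14 at 0.05 and Rnf25 at 0.02.

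Ligases of the ring-between-ring type, which carry ubiquitin on a cysteine of their own before passing it on, had 8 genes in the table, all tested, with 0 called. Of these, 2 lay above and 6 below 0, with a median log2 fold change of -0.02 with all livers and 0.02 without flox livers 4 and 5. The most abundant were Rnf14 at 22.5 and Rnf19a at 14.0 FPKM, followed by its relative Rnf19b at 10.4 FPKM. Rnf31, or HOIP, the catalytic subunit that builds linear ubiquitin chains, was at 3.32 FPKM and had 16.9, 15.6, 14.4, 17.6 and 17.4 CPM in flox livers against 14.6, 16.1 and 17.9 CPM at the lowest, median and highest in LKO livers. The groups lay on top of each other, with a log2 fold change of -0.04 (95% confidence interval -0.21 to 0.13).

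Around Rnf31, 9 other genes of the linear chain pathway were tested, 0 were called, and 8 of the 9 lay below 0, with a median log2 fold change of -0.07. Its partners in the ligase, Sharpin and Rbck1, were at -0.10 and -0.02. Tnfaip3, or A20, which binds linear chains and restrains NF-kappaB, had the smallest p of that list. Its mean was 5.95 ± 2.11 CPM per flox liver (SD, n = 5) and 4.21 ± 0.619 CPM per LKO liver (SD, n = 7), a log2 fold change of -0.50 for which edgeR gave a Benjamini-Hochberg adjusted p of 0.635. Without flox livers 4 and 5 its log2 fold change was -0.08. Ripk1, the kinase that carries such chains at the TNF receptor, was at -0.16, and at -0.15 without flox livers 4 and 5. Of the ring-between-ring ligases without an RNF symbol, 6 were tested and 0 called, 3 on each side of 0, with a median of 0.02. Cul9 at -0.26 and Park2, or parkin, the ligase of mitophagy, at 0.36 had the smallest p-values among them. Leaving out flox livers 4 and 5 gave -0.18 for Cul9 and 0.54 for Park2.

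Membrane ligases outside the protease-associated family had 14 genes in the table, 11 tested and 0 called, 6 above and 5 below 0, with a median log2 fold change of 0.01. Rnf5 and Rnf185 are related ligases that send misfolded proteins of the endoplasmic reticulum to the proteasome. They averaged 22.2 and 15.2 FPKM, with log2 fold changes of 0.09 (95% confidence interval -0.12 to 0.30) and -0.00 (-0.17 to 0.16). Rnf103, also of the endoplasmic reticulum, was at 21.6 FPKM and 0.02 (-0.14 to 0.19). Leaving out flox livers 4 and 5 gave 0.06 for Rnf5, 0.07 for Rnf185 and -0.05 for Rnf103.

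Rnf152 had the smallest p of any RNF gene. It encodes a lysosomal ligase known to restrain mTORC1 through the small GTPase RagA, and its gene is on the minus strand of chromosome 1, from 111524636 to 111606792. The flox livers read 12.8, 11.2, 12.2, 10.6 and 9.06 CPM, and the LKO livers 11.96 at the lowest, 14.1 at the median and 17.6 CPM at the highest. All 7 LKO livers were above the flox mean of 11.2 CPM, and the lowest of them lay below flox livers 1 and 3. The log2 fold change was 0.39 (SE 0.12, 95% confidence interval 0.14 to 0.64, unadjusted p = 0.00463), and the Benjamini-Hochberg adjusted p was 0.541 in edgeR. Flox livers 4 and 5 were the lowest of the 12. Without them the value was 0.28 (-0.00 to 0.56), an interval that reaches 0, and it ran from 0.23 to 0.46 over all alternatives tried.

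Rnf139 and Rnf145 are sterol-sensing ligases of the endoplasmic reticulum. Rnf139 averaged 10.8 FPKM and Rnf145 2.51 FPKM. Rnf145 read 17.1, 12.5, 23.3, 25.4 and 26.6 CPM in flox livers and 15.2, 19.1 and 22.6 CPM at the lowest, median and highest in LKO livers. Flox livers 4 and 5 were above all others. Rnf145 had a log2 fold change of -0.18 (95% confidence interval -0.54 to 0.17) with all livers and 0.07 without those livers. For Rnf139 the values were 0.03 (-0.13 to 0.19) and -0.01.

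Among the RING-H2 ligases without a membrane anchor, 9 genes were in the table, 8 were tested and 0 called, 3 above and 5 below 0, with a median log2 fold change of -0.05. Rnf11, a small adaptor of NEDD4-type ligases, and Rnf126, which clears proteins that miss the membrane together with BAG6, led the list at 35.1 and 19.5 FPKM. Their log2 fold changes were -0.06 each with all livers, and -0.06 for Rnf11 and -0.16 (95% confidence interval -0.40 to 0.07) for Rnf126 without flox livers 4 and 5. Rnf115, the relative of Rnf126, was at 13.5 FPKM and 0.03, and at -0.07 without them.

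Rnf44 had the second smallest p. It is on the minus strand of chromosome 13, from 55751693 to 55766198 and averaged 15.4 FPKM. Flox livers read 85.7, 80.8, 87.4, 90.2 and 81.1 CPM, and LKO livers 73.6, 76.3 and 82.0 CPM at the lowest, median and highest. All 7 LKO livers lay under the flox mean, and the groups overlapped in a narrow band. The log2 fold change was -0.15 (SE 0.06, 95% confidence interval -0.27 to -0.03, unadjusted p = 0.0176), and the Benjamini-Hochberg adjusted p was 0.62 in edgeR. With flox livers 4 and 5 left out it was -0.14 (-0.29 to 0.01), an interval that includes 0.

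The C2HC-type ligases, which pair the RING with extra zinc fingers, had 4 genes in the table, of which 3 were tested and 0 called, with a median log2 fold change of -0.05. Rnf114 was the most abundant at 23.8 FPKM and among the steadiest, with a log2 fold change of -0.05 (95% confidence interval -0.19 to 0.09). Its relative Rnf166, known from human cells for marking the autophagy receptor p62, was at 7.63 FPKM. Rnf166 read 17.5, 13.8, 17.6, 17.1 and 17.4 CPM in flox livers and 12.6, 13.5 and 17.1 CPM at the lowest, median and highest in LKO livers. Flox liver 2 sat among the LKO values, and 1 LKO liver came close to the other 4 flox livers. The log2 fold change was -0.24 (SE 0.10, 95% confidence interval -0.45 to -0.04, unadjusted p = 0.0239), and the Benjamini-Hochberg adjusted p was 0.635 in edgeR. Without that pair of flox livers it was -0.21 (-0.47 to 0.06), which includes 0 as well. Rnf138, a ligase of DNA end resection, was at 3.77 FPKM, and its copy Rnf138rt1 was at 0 counts in every liver. How reads shared by such copies were counted is not given in the sources used here.

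**Figure D4:**
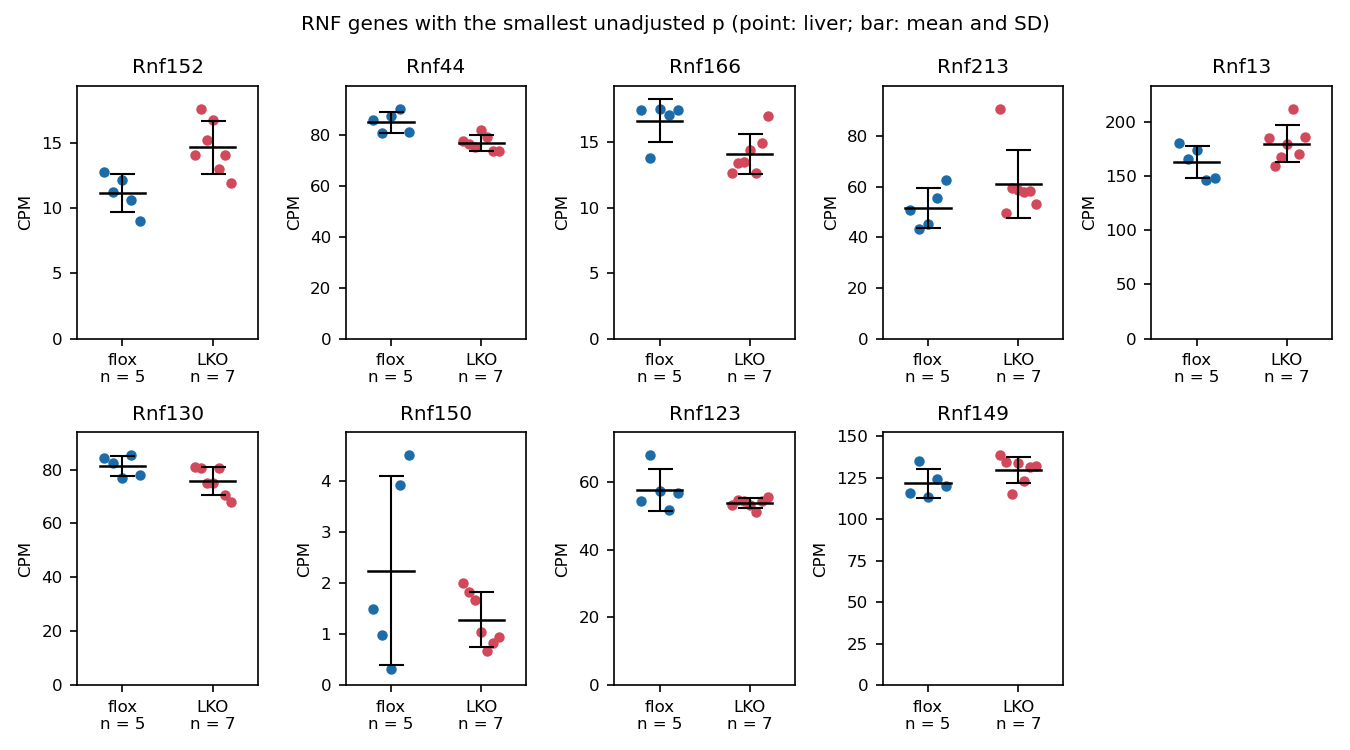
CPM in each liver (y axes, from 0) for 9 of the 10 RNF genes of smallest unadjusted p among those averaging at least 1 CPM, as points for 5 flox and 7 LKO livers with bars for mean and SD. Flox and LKO livers overlap in every panel, and LKO liver 1 stands above the others for Rnf213 at 90.8 CPM.

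The ligases of chromatin and DNA damage had fold changes from -0.07 to 0.07 on the log2 scale over 9 tested genes of 10, with 0 called, 5 above and 4 below 0. Without flox livers 4 and 5 the value of Rnf8 was -0.28 and the median of the list went from 0.005 to -0.03. With all livers, the widest 95% confidence intervals of the list were -0.51 to 0.42 for Rnf8 and -0.42 to 0.45 for Rnf113a1. Rnf4 and Rnf111, which recognise SUMO chains, were at 14.6 and 5.05 FPKM. Rnf8 and Rnf168, which ubiquitinate histones at DNA breaks, were at 0.956 and 4.18 FPKM, and Rnf169, which binds the mark made by Rnf168, at 8.97 FPKM. Rnf20 and Rnf40 form the ligase for histone H2B and were at 4.74 and 7.28 FPKM. Their log2 fold changes were 0.07 (95% confidence interval -0.08 to 0.22) and -0.02 (-0.19 to 0.16). Of 10 tested partners in H2B and break ubiquitination, 0 were called and 5 lay on each side of 0. The E2 pair of lysine-63 chains, Ube2v2 and Ube2n, had the smallest p-values, with log2 fold changes of 0.19 and 0.12. Without flox livers 4 and 5 these fold changes were 0.16 and 0.12.

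Rnf2, the catalytic subunit of Polycomb repressive complex 1, was at 4.58 FPKM. It read 16.5, 15.9, 22.6, 19.4 and 18.6 CPM in flox livers and 18.2, 19.1 and 20.4 CPM at the lowest, median and highest in LKO livers, and the log2 fold change was 0.05 (95% confidence interval -0.14 to 0.23). Of 18 further subunits of that complex, 0 were called, and 6 lay above and 12 below 0 with a median of -0.08. Ring1, the alternative catalytic subunit, was at -0.09. Cbx2 was at -0.21, and its adjusted p was 0.708 in edgeR after Benjamini-Hochberg adjustment. The log2 fold change of Cbx2 was -0.11 without flox livers 4 and 5.

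The signalling and innate immune ligases had 7 genes, all tested, with 0 called, 2 above and 5 below 0, and a median log2 fold change of -0.03, which was 0.03 without flox livers 4 and 5. Rnf123, the ligase of the cell cycle inhibitor p27, was the most abundant at 8.45 FPKM, with a log2 fold change of -0.10 (95% confidence interval -0.24 to 0.05). Rnf135, a partner of the RNA sensor RIG-I, was at 5.22 FPKM and -0.05 (-0.32 to 0.21). Rnf146, which reads poly-ADP-ribose, was at 4.68 FPKM and 0.08 (-0.14 to 0.31). Rnf41, which turns over receptors of the ErbB family, was among the 4 steadiest members, at 2.16 FPKM and -0.02 (-0.21 to 0.17). Leaving out that pair of livers gave -0.15 for Rnf123, 0.06 for Rnf135, 0.12 for Rnf146 and 0.03 for Rnf41.

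Rnf213 encodes a giant AAA-type ligase found on lipid droplets and is the susceptibility gene for moyamoya disease in people. It lies on chromosome 11 from 127549596 to 127657623 on the plus strand. Flox livers read 50.6, 43.2, 45.4, 55.7 and 62.6 CPM, and LKO livers 49.6, 58.5 and 90.8 CPM at the lowest, median and highest. LKO liver 1 gave the highest value, and the other 6 LKO livers lay within the range of the flox livers. The log2 fold change was 0.25 (SE 0.14, 95% confidence interval -0.06 to 0.55) and it was 0.12 without LKO liver 1. With flox livers 4 and 5 left out the log2 fold change was 0.40, and this was then the 1 RNF gene at an unadjusted p under 0.05. The edgeR p was 0.0260 before and the adjusted p 0.903 after Benjamini-Hochberg adjustment.

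The values without flox livers 4 and 5 as a whole had 0 of 58 RNF genes past the threshold in edgeR, with 1 at an unadjusted p under 0.05, beside 0.00781% and 5.27% of all genes tested. The median log2 fold change was -0.015, beside 0.0041 for all genes. The fold change moved by under 0.1 in 42 members and by over 0.5 in 4, and 20 members changed sign.

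The 4 that moved most were all at low levels. Rnf150 read 1.5, 0.989, 0.305, 3.93 and 4.5 CPM in flox livers and 0.660, 1.03 and 2.0 CPM at the lowest, median and highest in LKO livers. Its log2 fold change was -0.82 (95% confidence interval -1.91 to 0.28) and 0.43 without flox livers 4 and 5. Rnf157, a brain-enriched ligase, read 0.839, 0.212, 0.458, 2.39 and 2.98 CPM in flox livers and 0.418, 1.1 and 2.13 CPM in LKO livers in the same order. For it the log2 fold change was -0.34, and 1.09 without that pair. Flox livers 4 and 5 were thus the highest of the 12 for both genes, and the other 3 flox livers lay within or below the range of the LKO livers.

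Rnf144a, a ring-between-ring ligase of DNA damage signalling, likewise had its highest values in them, at 1.38, 2.12, 0.535, 3.44 and 4.01 CPM in flox livers and 0.951, 1.76 and 2.73 CPM at the lowest, median and highest in LKO livers. Its log2 fold change was -0.31 with all livers and 0.46 without that pair. Its relative Rnf144b was at 8.84 FPKM beside 0.394 FPKM, and at 0.15 (95% confidence interval -0.21 to 0.51), or 0.34 (-0.08 to 0.75) without the pair. Rnf122, at 0.0913 FPKM, was the lowest gene tested and went from -0.16 to 0.87. Its relative Rnf24 was at 1.63 FPKM.

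Flox livers 4 and 5 were both above the other 10 livers in 5 tested RNF genes, or 8.62% beside 11.4% of all genes tested. These were Rnf145, Rnf144a, Rnf150, Rnf157 and Rnf122. Both were below the others in 4, or 6.90% beside 6.75%, namely Rnf13, Rnf20, Rnf152 and Rnf8. Rnf8 went from a log2 fold change of -0.05 to -0.28 without them. The neutrophil, macrophage, endothelial and stellate cell sums were also above the other 10 livers in both, and their part in the values was not tested.

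**Figure D5:**
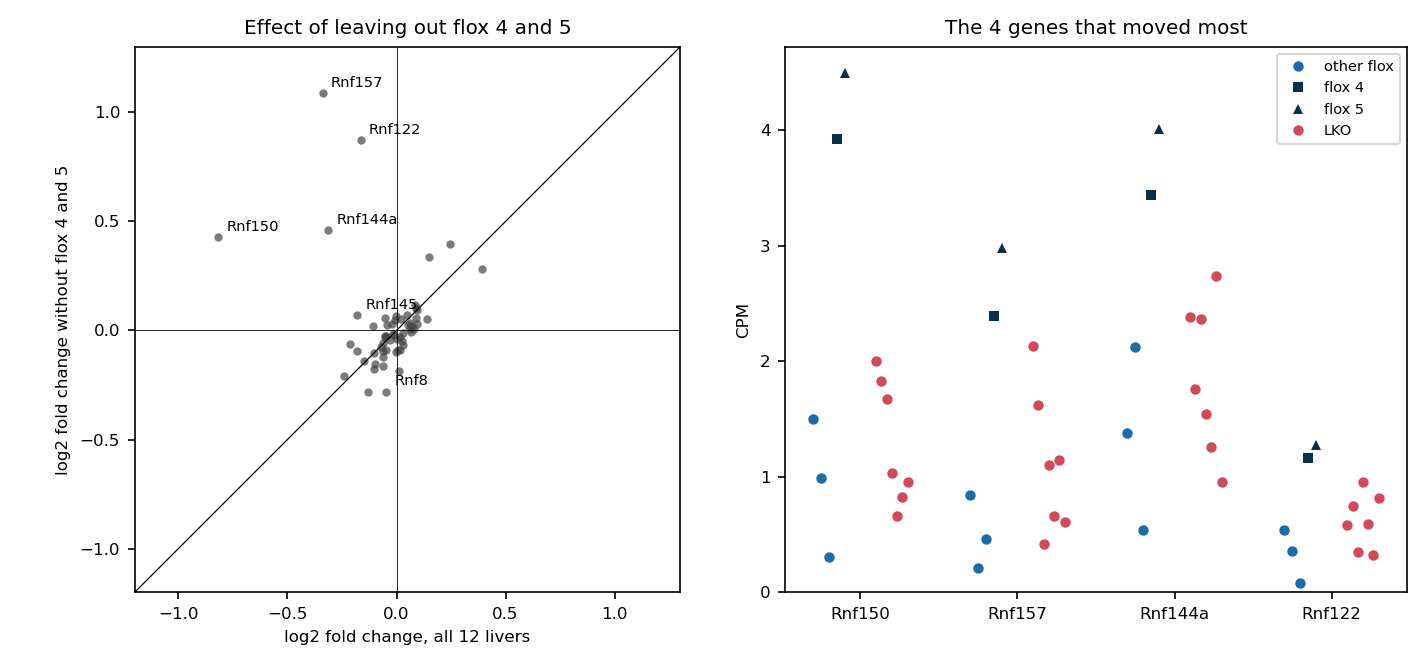
Left, log2 fold change of each tested RNF gene without flox livers 4 and 5 (y axis) against that with all 12 livers (x axis), with the line of equality; right, CPM in each liver (y axis) for the 4 genes that moved most. Flox livers 4 and 5, with symbols of their own, are the 2 highest of the 12 livers for Rnf150, Rnf157, Rnf144a and Rnf122.

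Among members averaging at least 1 CPM, the largest spread between livers was in Rnf157, Rnf150, Rnf144a, Rnf219, Rnf24 and Rnf186. The last is known from the gut epithelium as a ligase of the endoplasmic reticulum. Rnf186 was at 5.72 FPKM and read 9.52, 8.48, 6.49, 6.69 and 4.5 CPM in flox livers against 5.54, 6.63 and 9.89 CPM at the lowest, median and highest in LKO livers. The spread was as wide within a group as between groups, with a log2 fold change of 0.01 (95% confidence interval -0.40 to 0.42), and of -0.19 (-0.59 to 0.22) without flox livers 4 and 5.

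The 18 genes too low to test ranged from no reads at all to 91 counts. At 0 counts in all 12 livers were Rnf112, Rnf113a2, Rnf138rt1, Rnf183, Rnf212 and Rnf224, and 0 counts allow a level of up to 0.0166 CPM over the 12 libraries, for counting error only. Another 8 had 10 counts or fewer in all, namely Rnf208, Rnf165, Rnf151, Rnf17, Rnf207, Rnf148, Rnf133 and Rnf182. The last 4 were Rnf225 with 91, Rnf180 with 63, Rnf32 with 62 and Rnf222 with 17 counts over the 12 livers. Of the 4 genes listed for the germline in the table, which include Rnf212 of meiotic crossing-over and Rnf17 of germ cell granules, 0 were tested. Rnf208 and Rnf224, both near silent, lie 5467 bases apart on chromosome 2.

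The domain annotation in the deposited table lists Pfam domains for 39 of the 76 genes. It names an in-between-ring domain in 6, all tested, with 1 above and 5 below 0. A protease-associated domain with a RING is named in 5, and a C3HC4 RING in 17, of which 12 were tested with 6 on each side of 0. None of these classes held a called gene.

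Of the 3 RNF genes on chromosome 9, where Ube4a lies from 44737000 to 44780476, Rnf214 is the nearest and starts 960463 bases beyond it. Rnf214 read 21.7, 29.0, 31.5, 24.9 and 25.7 CPM in flox livers and 23.4, 26.1 and 29.8 CPM at the lowest, median and highest in LKO livers. The log2 fold change of Rnf214 was 0.00 (95% confidence interval -0.20 to 0.20), that of Rnf111 was 0.00 (-0.22 to 0.23) and that of Rnf123 was -0.10.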

How the data were processed

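RNA of 12 livers was isolated with TRIzol and sequenced from NEBNext Ultra RNA libraries, per the labels' protocols. The authors deposited whole-number counts per gene and FPKM values. DESeq2 1.20.0, featureCounts 1.5.0-p3, HISAT2 2.0.5, CASAVA 1.8 and fastp were used on build GRCm39, per the submitters' processing notes. Gene identifiers in the deposited table come from the annotation of the C57BL/6NJ strain, and coordinates are printed as they stand there. Neither the strand setting nor the treatment of shared reads is given in the sources used here. The deposited FPKM equals count over gene length and over 1 effective size per library, and served for levels between genes and as an alternative scale, log2(FPKM + 0.1) and log2(FPKM + 1).

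The whole count table, with its 612 loci that lack a symbol included, was filtered with filterByExpr, scaled by TMM and compared with edgeR 4.0.16 in R 4.3.3 (glmQLFit, robust, no covariate). P-values were adjusted by Benjamini-Hochberg over the 12615 genes tested, with a threshold of 0.05. CPM values use the scaled library sizes. Intervals of fold changes are at 95% confidence. Every pair of libraries of a group differed by more than sampling noise. The code was tested on simulated data. P-values set the difference between the groups against the spread between these mice.

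The RNF genes and all lists were chosen with earlier results of these data known. From the members averaging at least 1 CPM, the 10 of smallest p are named, as values. Of the same members, the 6 with the largest and the 4 with the smallest SD of log2 CPM (prior count 2) are named. So are the 5 of them whose fold change moves most without flox livers 4 and 5. Without that limit, the 10 highest by FPKM, the 2 highest of each list and the 2 partners with the smallest p per list are named. Related pairs and members not tested are named as well. Of the genes that this rule names, 2 are not reported here, and figures that label each gene leave out the one of them that is a member. Others are named to describe a role or a count, chosen after their values were seen. Protein sequences were not used here, so domains come from the table and relatives from textbook knowledge. Alternatives were other scaling and filters, DESeq2 1.42.0, limma 3.58.1 with voom quality weights, non-robust dispersion, the FPKM scales, the replicate number as a block, and leaving out livers.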

Additional observations from a re-analysis of the deposited data

Results flagged for a closer look

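Among 41 members checked in 82 groups, 9 groups held 1 liver far from the others by Dixon's test. Chance gives this in about 1 of 20 groups where genes are not picked by their values. Some of these members were named for their spread or small p in these data, so that rate need not hold here. In flox livers, Rnf14 was low in liver 1 at 56.1 CPM, with the next value at 68.7 CPM. Rnf166 was low in flox liver 2 at 13.8 CPM, with the next at 17.1 CPM. Rnf167 was high in flox liver 1 at 36.7 CPM, with the next at 33.5 CPM, and Rnf24 in flox liver 3 at 16.5 CPM, with the next at 10.7 CPM.

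In LKO livers, liver 1 was high for Rnf213 at 90.8 CPM, with the next at 59.4 CPM, and for Rnf5 at 42.6 CPM, with the next at 34.7 CPM. LKO liver 7 was high for Rnf4 at 134.4 CPM, with the next at 109.1 CPM, and for Rnf40 at 50.4 CPM, with the next at 41.5 CPM. LKO liver 4 was high for Rnf169 at 84.6 CPM, with the next at 69.1 CPM.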

How the results depend on the processing

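Over 23 alternatives, 0 RNF genes passed the threshold in each, with the smallest adjusted p at 0.231 (DESeq2). The median log2 fold change of the tested members ran from -0.046 to -0.0027. It was -0.046 with total counts in place of TMM, the 1 value that moved by more than its SD of 0.0256 over livers. The median over all genes tested moved as well, from -0.006 with TMM to -0.036 with total counts. With 1 liver left out the median of the members ran from -0.036 to -0.0086, with 0 members called each time and 1 to 2 genes called over the whole table. Reading a direction only where the unadjusted p was under 0.05 in either fit, 0 of 938 values for 41 named members reversed. Few values could count under that rule, since 3 members were under 0.05 in the main fit and 1 to 4 in each alternative. Without regard to p, 20 of the 41 changed sign somewhere. Of the 10 with the smallest p, 9 kept their sign throughout, the exception being Rnf150 (-1.09 to 0.43). With the replicate number as a replicate block, 0 members were called and the median was -0.027. Correlations of same-numbered livers ran from -0.289 to 0.104. They cannot show whether such livers shared a litter or batch, and the labels name neither. Depth limits members under 1 CPM, where Rnf122 had 119 counts in all.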
